A study of Mus musculus with 8 samples.

Results

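The MCM and GINS genes encode 10 subunits of the replicative DNA helicase, and accessible chromatin was followed at Mcm2, Mcm3, Mcm4, Mcm5, Mcm6, Mcm7, Gins1, Gins2, Gins3 and Gins4 during the first 2 h of Ikaros (IKZF1) induction. A peak was assigned to a gene when its summit lay in the gene body or within 10 kb of it in GRCm38 with the GENCODE vM21 annotation. This gave 300 of the 767727 peaks in the 8 deposited lists. Peaks that overlapped by at least 1 base were merged across lists, so the 300 peaks formed 54 of 174718 regions. Of the 54, 25 were present in every one of the 8 lists. All 8 libraries came from mouse pre-B cells of the line B3 that carried Ikaros-ERt2, a fusion of Ikaros to a modified oestrogen receptor domain that enters the nucleus when 4-hydroxytamoxifen (4-OHT) is given. The groups were untreated cells (0 h) and cells kept in 500 nM 4-OHT, sampled after 30 min, 1 h and 2 h, and each group had 2 libraries. The 0 h cells carried the same transgene and received no 4-OHT, so what 4-OHT or its solvent does cannot be told apart here from what nuclear Ikaros does. The transgene was delivered by retrovirus with a GFP marker and the cells were sorted for GFP. Nothing in the labels says that the 2 libraries of a time point were separate cultures, so every p-value measures only the spread between libraries, which may be technical.

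Mcm2 to Mcm7 form the hexameric ring that encircles DNA. The ring is loaded inactive onto origins in G1 by the origin recognition complex with Cdc6 and Cdt1, and becomes an active helicase in S phase when Cdc45 and the GINS complex join it. GINS is a small assembly of Gins1 (Psf1), Gins2 (Psf2), Gins3 (Psf3) and Gins4 (Sld5), and the full assembly of Cdc45, MCM and GINS unwinds the fork ahead of the polymerases. These genes are classical targets of E2F factors and are transcribed in cycling cells such as large pre-B cells, while Ikaros is known to restrain pre-B cell proliferation.

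RefSeq promoter entries (GRCm38.p6, 250 bases before to 50 after a start site) matched 6 of the 10 genes, with 7 entries because Mcm7 has 2. Mcm4, Gins1, Gins2 and Gins4 had no entry. The 250 bases before the start site are shown for the 5 MCM genes with an entry, and the Gins3 entry is not printed. Each stretch shown overlaps a promoter region described further on, but only that of Mcm3 holds the summit of its region. For Mcm7 the entry shown is the one that overlaps the promoter region with the largest fall in percentile. Capitals mark the CCAAT box bound by NF-Y (CCAAT or its reverse complement ATTGG) and 4 words of the E2F type (TTTCCCGC, TTTGGCGC, TTTCGCGC and TTTGCCGC, either strand).
Mcm2 promoter, chr6:88898781-88899030, minus strand: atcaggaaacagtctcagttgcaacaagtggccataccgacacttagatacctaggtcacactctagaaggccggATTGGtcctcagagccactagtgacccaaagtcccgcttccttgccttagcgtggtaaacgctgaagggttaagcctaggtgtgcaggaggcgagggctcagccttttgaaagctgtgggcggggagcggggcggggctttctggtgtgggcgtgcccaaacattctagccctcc
Mcm3 promoter, chr1:20820313-20820562, minus strand: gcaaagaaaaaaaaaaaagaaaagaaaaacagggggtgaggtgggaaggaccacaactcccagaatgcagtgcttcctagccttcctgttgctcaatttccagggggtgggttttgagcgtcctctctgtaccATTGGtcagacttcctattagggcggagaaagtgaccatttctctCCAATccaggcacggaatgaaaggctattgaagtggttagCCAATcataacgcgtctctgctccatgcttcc
Mcm5 promoter, chr8:75109259-75109508, plus strand: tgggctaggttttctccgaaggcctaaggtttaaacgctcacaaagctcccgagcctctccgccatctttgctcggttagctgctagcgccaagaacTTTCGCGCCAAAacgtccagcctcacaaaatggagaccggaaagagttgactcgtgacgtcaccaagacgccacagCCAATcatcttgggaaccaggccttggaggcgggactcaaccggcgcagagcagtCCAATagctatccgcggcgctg
Mcm6 promoter, chr1:128359706-128359955, minus strand: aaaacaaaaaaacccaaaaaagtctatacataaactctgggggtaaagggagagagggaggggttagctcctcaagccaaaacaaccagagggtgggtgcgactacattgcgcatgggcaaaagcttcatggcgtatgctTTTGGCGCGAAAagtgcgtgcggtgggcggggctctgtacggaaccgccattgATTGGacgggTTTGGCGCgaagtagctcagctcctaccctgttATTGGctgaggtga
Mcm7 promoter, chr5:138171267-138171516, minus strand: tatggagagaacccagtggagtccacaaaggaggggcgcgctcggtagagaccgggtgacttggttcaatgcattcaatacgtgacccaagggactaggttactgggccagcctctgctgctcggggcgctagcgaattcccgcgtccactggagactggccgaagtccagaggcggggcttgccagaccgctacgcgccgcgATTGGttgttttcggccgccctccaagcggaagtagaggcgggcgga
Every one of the 7 entries held a CCAAT box in its 300 bases, against 37.4% of the 32817 RefSeq promoter entries of the mouse. An E2F word was present in 5 of 7, against 2.26% of all entries and 16 of 51 entries (31.4%) of other replication genes. In Mcm5 a pair of E2F words overlapped into 1 run, Mcm6 held 3 words of which a pair overlapped, and both words of Mcm3 lay in the 50 bases after the start site that are not printed. The Mcm2 entry and the Mcm7 entry shown held none. The summit of the Mcm2 promoter region lies outside its entry, and the 200 bases around that summit held 2 E2F words. Short words that lie within the Ikaros core GGGAA (GGAA or TTCC, and GGGA or TCCC) were present in all 7 entries, but also in 96.0% and 95.3% of all promoters. The core itself, GGGAA or TTCCC, was present in 5 of 7 entries against 62.7% of all, and it is contained in the E2F word TTTCCCGC, as are TTCC and TCCC.

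Outside the genes' own promoters, 5 regions whose level or presence differed between time points are shown. They are the largest fall and the 2 largest rises in percentile among the 25, and a steep fall and a gained peak at Mcm5, both outside the 25. Their sequences are given on the plus strand of GRCm38.p6, with the words named for the Ikaros core in capitals.
Mcm5 intron, chr8:75119801-75120044, plus strand: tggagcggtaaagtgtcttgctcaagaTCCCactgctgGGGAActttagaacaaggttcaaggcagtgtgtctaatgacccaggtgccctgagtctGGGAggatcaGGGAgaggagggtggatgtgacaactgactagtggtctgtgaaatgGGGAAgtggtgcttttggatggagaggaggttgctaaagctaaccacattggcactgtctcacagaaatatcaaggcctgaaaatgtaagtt
Mcm5 downstream, chr8:75132585-75132782, plus strand: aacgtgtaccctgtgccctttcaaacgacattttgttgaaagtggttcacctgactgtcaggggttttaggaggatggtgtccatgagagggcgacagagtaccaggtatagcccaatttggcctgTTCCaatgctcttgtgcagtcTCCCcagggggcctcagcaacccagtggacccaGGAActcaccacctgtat
Gins4 upstream, chr8:23242870-23242990, plus strand: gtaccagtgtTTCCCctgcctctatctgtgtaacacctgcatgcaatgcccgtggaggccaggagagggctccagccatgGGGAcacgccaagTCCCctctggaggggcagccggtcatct
Mcm2 downstream, chr6:88879600-88879753, plus strand: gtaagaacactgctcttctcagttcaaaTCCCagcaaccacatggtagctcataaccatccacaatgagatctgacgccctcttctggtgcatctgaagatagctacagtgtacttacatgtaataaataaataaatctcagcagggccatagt
Tpra1 promoter near Mcm2, chr6:88902096-88902250, plus strand: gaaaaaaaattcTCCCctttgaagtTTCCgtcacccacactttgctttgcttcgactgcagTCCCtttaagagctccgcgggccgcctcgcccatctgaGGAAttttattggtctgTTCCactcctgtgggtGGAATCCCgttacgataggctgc
The Mcm5 intron region held GGAA or TTCC 2 times and GGGA or TCCC 5 times, with the full core GGGAA 2 times. The Mcm5 downstream region held 2 and 1, the Gins4 upstream region 1 and 3, and the Mcm2 downstream region 0 and 1. The stretch shown of the Tpra1 promoter, 155 bases outside annotated untranslated exons, held 4 and 3. The full core, as GGGAA or TTCCC, was found 1 time in the Gins4 upstream region. It was found 0 times in the Mcm5 downstream region, the Mcm2 downstream region and the Tpra1 stretch. The stretches run from 121 to 244 bases, so these counts are not on a common scale. Of the 200 bases around the summit of the Mcm2 downstream region, 79.0% were soft-masked in the RefSeq genome, which marks repeats and low-complexity sequence, and it was the only 1 of the 25 regions present in all lists with over 50% masked, against 6.59% of the 47875 tested regions.

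The lists held 85903 to 103897 peaks, fewer at 0 h (93936 and 85903) than at 2 h (103897 and 99060). The files give no counts, but the fold and p-value of each peak together give the whole number of fragments at its summit, which was recovered for 100% of peaks in each list. The median was 11 to 14 fragments a peak and the genome background 0.26 to 0.405 fragments a base, lowest in 0 h replicate 2. Of 10 pre-B marker genes, 7 had a promoter peak in all 8 lists, while 1 of 14 marker genes of T, myeloid, erythroid and fibroblast cells did (Col1a1) and 8 had none in any list. Values are given on a pair of scales. The percentile of a region is the rank of its fold over local background (the highest peak of the region) among all peaks of the same list, from 0 to 100. It is a level, and it rises for an unchanged peak when a list gains weak peaks. The shift is a difference from 0 h in normal scores of the rank among the 47875 regions common to all lists, and it is the scale of the test.

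**Figure D1:**
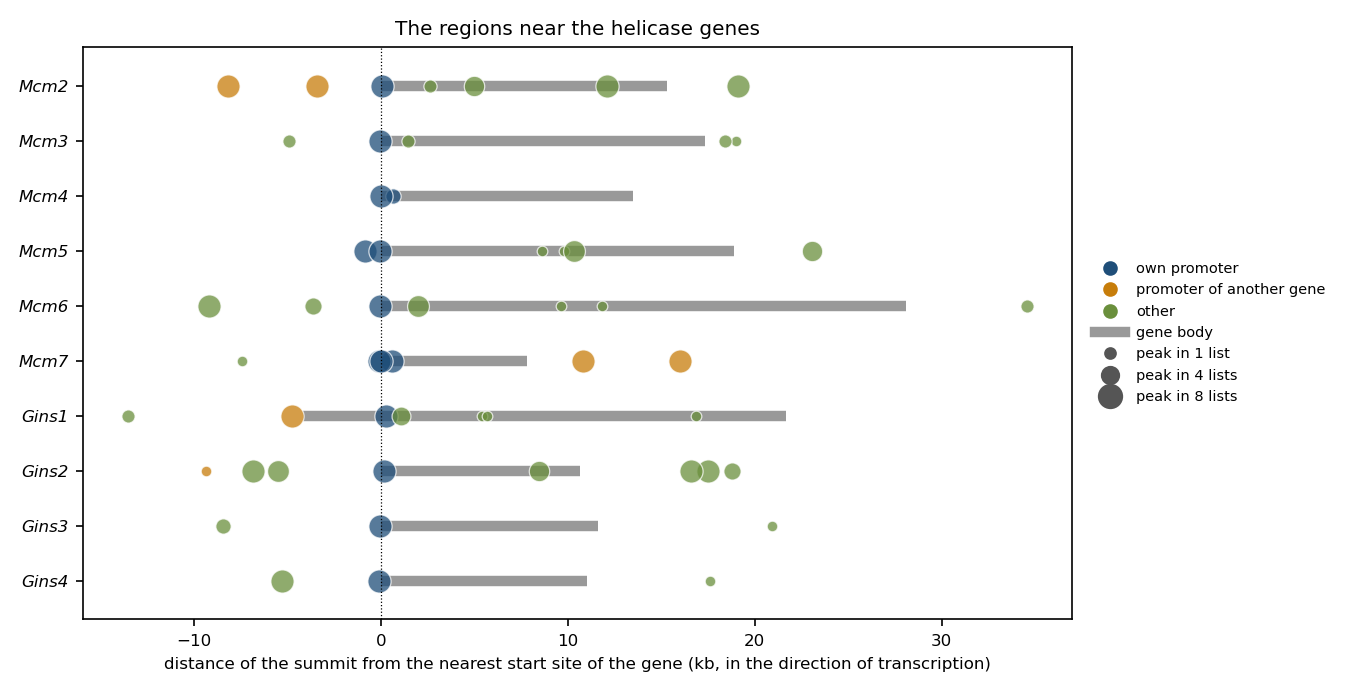
Distance of each of the 54 regions from the nearest start site of its gene (x axis, kb in the direction of transcription) for the 10 genes (rows); point size gives the number of lists with a peak and colour the kind of region. A promoter region with a peak in all 8 lists sits at the start site of every gene, and most of the smaller points lie inside genes or beyond their ends.

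All 10 genes had an accessible promoter in every library. Of the 54 regions, 14 lay within 1 kb of a start site of their own gene (13 of them in all 8 lists), 6 within 1 kb of the start of a neighbouring gene (5 in all 8) and 34 elsewhere (7 in all 8). By the summit, 26 regions were intronic, 20 intergenic, 4 in untranslated exons and 4 in coding exons. A peak in all 8 lists was present for 46.3% of the 54 regions against 27.4% of all regions of the series, and 12 regions (22.2% against 27.6%) were found in 1 list each. Gins2 had the most regions (8) and Mcm4 the fewest (2). Regions in fewer lists had fewer fragments. The median was 48.5 fragments at the summit for regions in all lists, 10 for those in 2 to 7 lists and 5.5 for those in 1 list, where a list's own weakest peaks had 3 or 4.

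The first question was whether any helicase region changed in rank after induction. At an adjusted p of 0.01 (limma, Benjamini-Hochberg adjustment over 47875 regions) 0 of the 25 tested helicase regions were lower and 0 were higher at 30 min, at 1 h or at 2 h. Among all tested regions the shares lower and higher were 0.0% and 0.0% (30 min), 2.51% and 1.1% (1 h), and 4.71% and 2.28% (2 h), so about 1 lower region in 25 would match the series at 2 h. At an adjusted p of 0.05 the calls were 1 region higher at 30 min (Gins4 upstream), and 2 lower (the Mcm3 promoter and the Tpra1 promoter near Mcm2) and 1 higher (Gins4 upstream) at both 1 h and 2 h. The shares of all regions lower and higher at that threshold were 1.49% and 0.702% (30 min), 8.18% and 5.74% (1 h), and 11.1% and 8.34% (2 h). At an unadjusted p of 0.05, 2 helicase regions were lower and 3 higher at 30 min (9.94% and 9.51% of all regions), 3 lower and 2 higher at 1 h (15.5% and 14.9%), and 3 lower and 2 higher at 2 h (17.4% and 17.1%). Both 2 h libraries lay below both 0 h libraries in rank for 8 of 25 (32.0%, against 29.8% of all regions) and above them for 3 (12%, against 32.8%). Such separation was thus common in the series. Where it is given below for all 6 induced libraries, the share over all regions was not counted. Every such comparison reuses the same 2 untreated libraries. For the whole series the balance of calls depended on the scale, with 2256 regions lower and 1092 higher at 2 h by rank, 3418 and 3758 by fragments over background, and 1305 and 1199 by rank among all peaks of a list. At 1 h the same 3 scales gave 1204 and 526, 2467 and 2037, and 489 and 472. By rank, the 2 h counts lower and higher depended on single libraries, with 192 and 149 without 0 h replicate 1, 0 and 0 without 0 h replicate 2, 307 and 48 without 2 h replicate 1, and 194 and 19 without 2 h replicate 2. At 1 h no region of the series passed without either 0 h or either 1 h library.

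**Figure D2:**
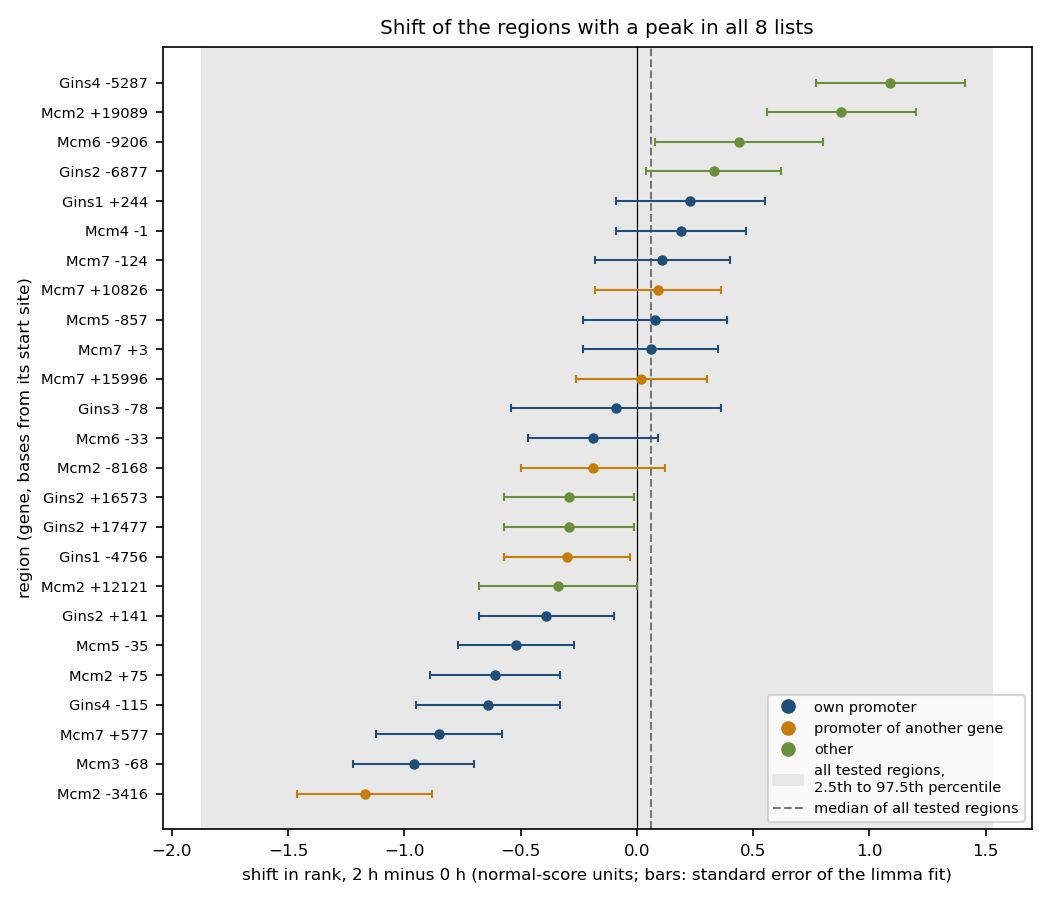
Shift in rank from 0 h to 2 h (x axis, normal-score units, bars give the standard error of the limma fit) for the 25 helicase regions with a peak in all 8 lists (rows, named by gene and bases from its start site). Colours give the kind of region and the dashed line the median of all tested regions. The shaded band spans -1.87 to 1.53, the 2.5th to 97.5th percentile of all 47875 tested regions, and every helicase region lies inside it.

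Among the ring subunits, the Mcm3 promoter had the clearest fall. Its region (chr1:20820146-20820534, summit 68 bases upstream of the start, shared with the divergent gene Gm20587) was at percentile 96.5 and 97.6 in the untreated libraries, then at 92.1 and 91.6 (30 min), 87.5 and 85.0 (1 h), and 84.6 and 90.2 (2 h). The fragments at its summit were 63 and 56, 43 and 37, 36 and 28, and 30 and 34 in the same order. All 6 induced libraries lay below both untreated ones on both scales, a pattern whose share over all regions was not counted. The shift in rank was -0.61 (SE 0.26, adjusted p = 0.241) at 30 min, -1.02 (SE 0.26, adjusted p = 0.0312) at 1 h and -0.96 (SE 0.26, adjusted p = 0.0312) at 2 h in limma. With a mean trend and robust prior the adjusted p was 0.00694 at 1 h and 0.00741 at 2 h, past the threshold, and with centred fragments over background 0.00669 and 0.00521. Of all 47875 regions, 2121 and 3272 were lower past the threshold under the first setting, and 3157 and 4480 under the second.

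Mcm2 encodes a subunit whose amino-terminal tail also binds histones. Its promoter (chr6:88898626-88898930, summit 75 bases into the first exon, in untranslated sequence) was at percentile 86.4 and 92.5, 85.2 and 80.1, 74.2 and 78.5, and 78.0 and 83.3 over the 4 time points, with fragments of 59 and 51, 56 and 40, 37 and 42, and 42 and 45. All 6 induced libraries were below both 0 h libraries in percentile, by a narrow margin at 30 min. The shift was -0.81 (SE 0.28, adjusted p = 0.0848) at 1 h and -0.61 (SE 0.28, adjusted p = 0.155) at 2 h.

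Mcm7 had 3 promoter regions, all within 1 kb of start sites of Mcm7 and of Ap4m1, which encodes an adaptor subunit and is read in the other direction. The intronic one (chr5:138170926-138171472, 577 bases downstream) was at percentile 68.7 and 74.6, 67.3 and 67.7, 68.9 and 62.1, and 59.3 and 45.9, with 44 and 41, 42 and 39, 42 and 35, and 34 and 24 fragments. Both 2 h libraries were below all others, and the shift at 2 h was -0.85 (SE 0.27, adjusted p = 0.0517). The strongest one (chr5:138171775-138172174, 124 bases upstream) stayed at 80.0 to 91.8 in all 8 libraries and the third (chr5:138172356-138172500, 3 bases downstream, in coding sequence of Ap4m1) at 67.2 to 84.9. Their shifts at 2 h were 0.11 (SE 0.29) and 0.06 (SE 0.29), values within their errors of 0, and with each library centred both were below 0 (-0.07 and -0.05). No region lay over the part of Mcm7 that holds the microRNA genes Mir25, Mir93 and Mir106b.

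Mcm5 had a region at its start (chr8:75109280-75109629, 35 bases upstream) and a second one 857 bases upstream (chr8:75108604-75108853). The first went from percentile 93.2 and 92.9 at 0 h to 89.8 and 89.6, 88.6 and 91.4, and 87.6 and 86.8, with 79 and 61, 64 and 54, 60 and 60, and 62 and 50 fragments. The 2 libraries of every induced time were below both of 0 h in percentile, and the shift at 2 h was -0.52 (SE 0.25, adjusted p = 0.177). The upstream one ranged from 87.3 to 96.4 with overlapping groups and shifted by 0.08 (SE 0.31) at 2 h.

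The promoters of Mcm4 and Mcm6 kept to a narrow range. The Mcm4 region (chr16:15637257-15638090, shared with Prkdc, the catalytic subunit of DNA-dependent protein kinase) was at percentile 91.0 to 96.8 in the 8 libraries, with a shift of 0.19 (SE 0.28, adjusted p = 0.662) at 2 h. The Mcm6 region (chr1:128359326-128359912) was at 92.2 to 97.3 and shifted by -0.19 (SE 0.28, adjusted p = 0.673). A weak second Mcm4 region in a coding exon (chr16:15636726-15636835, 625 bases downstream) was found in both 1 h lists and in 2 h replicate 1, at percentiles 15.3, 4.31 and 8.05 with 13 to 15 fragments, and in no other list.

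**Figure D3:**
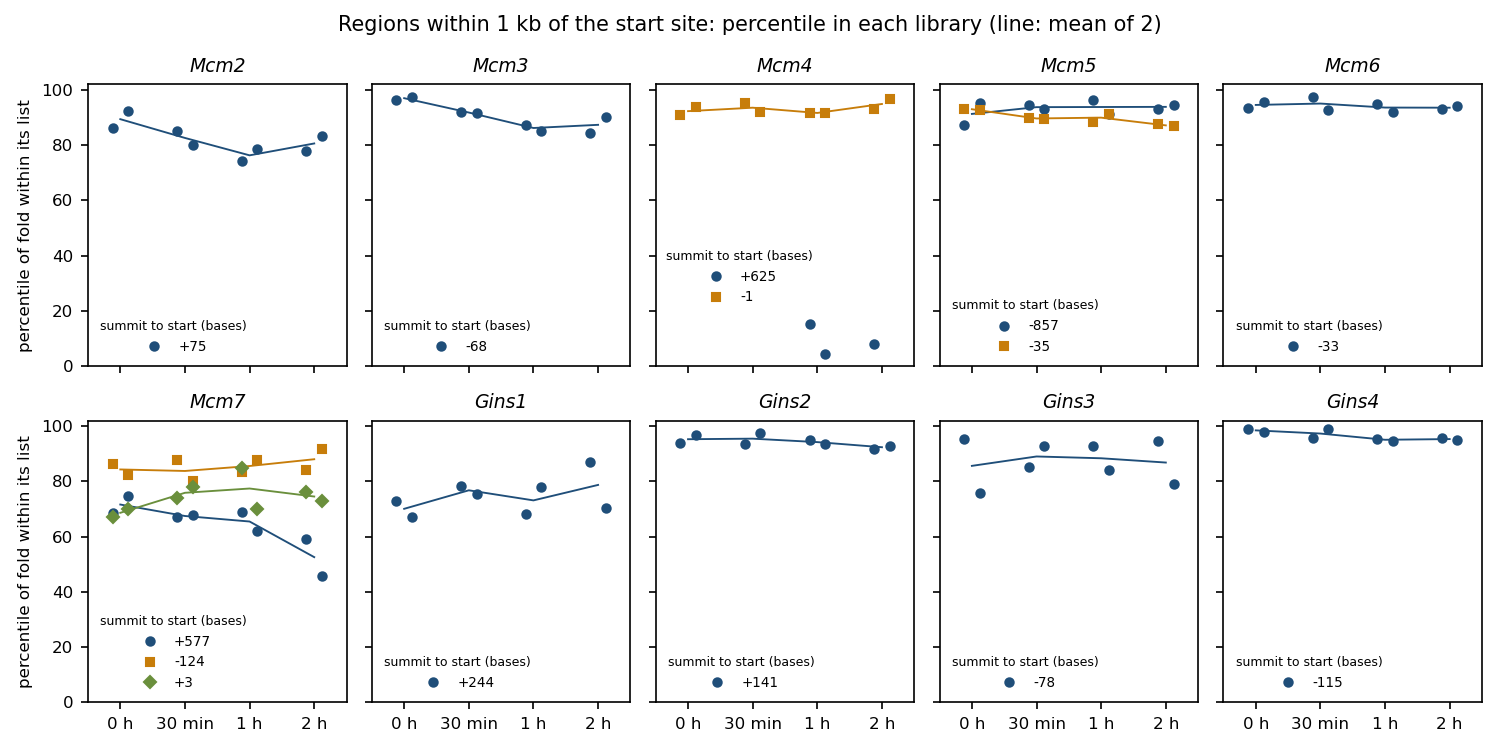
Percentile of the fold within its list (y axis, 0 to 100) at each time point (x axis) for the regions within 1 kb of the start sites of the 10 genes (panels); each point is 1 library, each line joins the means of 2 libraries, and colours separate regions of 1 gene. Most lines of means stay above 80 throughout, though single libraries of some of these promoters do not. The Mcm3 line steps down after 0 h within that range and the Mcm2 line steps down to below 80 at 1 h. The Mcm7 region at +577 is lowest at 2 h.

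Of the GINS genes, Gins4 had the strongest promoter in untreated cells. Its region (chr8:23237603-23237983, 115 bases upstream) was at percentile 99.0 and 98.0 in the untreated libraries, then at 95.6 and 99.1 (30 min), 95.5 and 94.7 (1 h), and 95.7 and 95.0 (2 h), with 81 and 62, 58 and 72, 53 and 48, and 59 and 49 fragments. The 1 h and 2 h libraries were below both 0 h libraries and 30 min replicate 2 was above them. The shift was -0.64 (SE 0.31) at 1 h and at 2 h, with adjusted p of 0.19 and 0.174.

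Gins2 (chr8:120589009-120589566, 141 bases downstream in untranslated sequence, shared with Gm10614) was at percentile 91.9 to 97.5 in all libraries, with 74 to 92 fragments. Its shift at 2 h was -0.39 (SE 0.29, adjusted p = 0.382). The paper names Gins2 among the genes whose nascent RNA fell early after induction and that are raised in leukaemia with dominant negative IKZF1. It also links Gins2 to a super-enhancer, called by H3K27 acetylation, that was repressed early. These are different measures from promoter accessibility. Where that super-enhancer lies was not compared with the regions near Gins2. Gins3 (chr8:95633281-95633646, 78 bases upstream) was at 95.5 and 75.8, 85.1 and 93.0, 92.7 and 84.1, and 94.6 and 79.1. The 2 libraries of 0 h were further apart than any means of the time points, and the shift at 2 h was -0.09 with the largest error of the 25 regions (SE 0.45). Gins1 (chr2:150909444-150909947, 244 bases downstream in an intron) was the weakest of the GINS promoters, at 72.9 and 67.3, 78.3 and 75.3, 68.4 and 77.9, and 87.1 and 70.4, with a shift of 0.23 (SE 0.32, adjusted p = 0.646) at 2 h.

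As a group the promoters were strong. By rank, more of the helicase promoter regions lay below their 0 h level than above it at 1 h and 2 h, at 2 h in a share near that of all promoter regions. The 13 own-promoter regions present in all lists ranged from percentile 45.9 to 99.1, and the median of their mean percentiles over the 4 time points was 91.3, 89.7, 88.4 and 87.4, against 78.8, 80.2, 79.4 and 79.6 for the 14290 tested promoter regions. The median shift in rank was 0.01 at 30 min, -0.16 at 1 h and -0.19 at 2 h, against -0.02, -0.08 and -0.08 for all promoter regions. Below 0 were 6, 11 and 8 of the 13 (46.2%, 84.6% and 61.5%), against 52.0%, 55.5% and 55.6% of all promoter regions. The 13 belong to 10 genes, with 3 at Mcm7 and 2 at Mcm5, so they are not independent of each other. By fragments over background the median for the 13 was 0.02 on the log2 scale at 2 h with 6 of 13 below 0, so the direction flipped on a scale where the median of all regions was 0.22, and with each library centred it was -0.12 with 11 of 13 below 0. By rank among all peaks it was -0.09, where the median of all regions was 0.17.

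Promoters of neighbouring genes within reach of the helicase genes gave 5 tested regions, and the largest fall of the 25 was among them. The Tpra1 promoter upstream of Mcm2 (chr6:88902048-88902368, 3416 bases from the Mcm2 start) was at percentile 89.5 and 91.4 in the untreated libraries, then at 83.0 and 83.1 (30 min), 76.4 and 68.7 (1 h), and 77 and 59.6 (2 h). Its fragments were 71 and 52, 54 and 44, 40 and 33, and 43 and 26, and all 6 induced libraries were below both untreated ones in percentile. The shift was -0.5 (SE 0.29, adjusted p = 0.377) at 30 min, -1.02 (SE 0.29, adjusted p = 0.0414) at 1 h and -1.17 (SE 0.29, adjusted p = 0.0196) at 2 h. With a mean trend and robust prior the adjusted p at 2 h was 0.00551, and with centred fragments over background 0.00691, both past the threshold. Under these settings 3272 and 4480 of all 47875 regions were lower at 2 h. The other 4 were a second Tpra1 region and the promoters of Zfp113, Cops6 and Abhd12, whose shifts at 2 h lay between -0.3 and 0.09.

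Away from promoters, 7 regions had a peak in all lists, and the largest changes at 2 h were upward. The Gins4 upstream region (chr8:23242870-23242990, 5287 bases from the Gins4 start, in an intron of Golga7) was at percentile 21.2 and 6.4 in the untreated libraries, then at 75.4 and 68.0 (30 min), 54.7 and 68.9 (1 h), and 54.5 and 47.6 (2 h). It had 6 and 4 fragments at 0 h, close to the lowest a list can hold, then 16 and 14, 10 and 14, and 11 and 9. All 6 induced libraries were above both untreated ones. The shift was 1.87 (SE 0.32, adjusted p = 0.0243) at 30 min, 1.44 (SE 0.32, adjusted p = 0.0175) at 1 h and 1.09 (SE 0.32, adjusted p = 0.0379) at 2 h. By fragments over background the adjusted p was 0.00926 at 30 min and 0.00907 at 1 h, past the threshold. So were 142 and 2037 of all 47875 regions on the higher side. At 2 h the shift of the Gins4 upstream region was 0.66 without 0 h replicate 2. It was 0.47 (adjusted p = 0.16) in the set of regions with a peak in at least 2 lists. The Gins4 promoter was lower and this region higher in both 2 h libraries than in both 0 h libraries.

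The Mcm2 downstream region (chr6:88879600-88879753, 19089 bases from the start and beyond the end of the gene, nearest to Gm36189) was at percentile 21.2 and 42.2, 80.3 and 67.0, 70.7 and 62.0, and 69.2 and 60.4, with 6 and 7, 20 and 13, 14 and 12, and 16 and 11 fragments. All 6 induced libraries again exceeded both untreated ones, with a shift of 1.28 (SE 0.32, adjusted p = 0.0704) at 30 min and 0.88 (SE 0.32, adjusted p = 0.0839) at 2 h. Without 0 h replicate 1 these became 0.84 (adjusted p = 0.288) and 0.44 (adjusted p = 0.455), and in the set of regions with a peak in at least 2 lists the 2 h shift was 0.51 (adjusted p = 0.156). It is the mostly soft-masked region named with the sequences. An intronic region of the transcript Gm20388 6877 bases upstream of Gins2 (chr8:120596045-120596247) went from 62.9 and 65.4 to 80.0 and 87.1, 74.7 and 81.7, and 76.6 and 77.7, with 15 and 12 fragments at 0 h and 24 to 28 later. Its shift was 0.69 (SE 0.29, adjusted p = 0.226) at 30 min and 0.33 (SE 0.29, adjusted p = 0.455) at 2 h. A region 9206 bases upstream of Mcm6, in an intron of the aspartyl-tRNA synthetase gene Dars (chr1:128368760-128368963), was at 78.1 and 49.4, 70.5 and 65.1, 74.1 and 72.0, and 87.4 and 70.9, with overlapping groups and a shift of 0.44 (SE 0.36, adjusted p = 0.419) at 2 h. The other 3, in an intron of Mcm2 and at Gse1 beyond the end of Gins2, shifted by -0.34 to -0.29 at 2 h. One of them, in a coding exon of Gse1 (Gins2 +16573), was at -0.67 (SE 0.28, adjusted p = 0.229) at 30 min, a fall of similar size to the rise at Gm20388.

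Over these 7 regions the median of the mean percentiles over the 4 time points was 54.0, 71.7, 66.3 and 64.8, against 65.7, 70.2, 71.6 and 71.9 for the 33585 tested regions outside promoters. Their median shift in rank was 0.01 at 30 min, 0.12 at 1 h and 0.33 at 2 h, with 3 of 7 below 0 each time, against 0.05, 0.13 and 0.15 for all regions outside promoters, of which 46.1%, 43.2% and 42.9% were below 0.

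The second question was which regions appeared or disappeared. Of the 27 helicase regions with a peak in both 0 h lists, 0 were missing from both lists of 30 min (10.9% of all such regions), 1 from both of 1 h (3.7%, against 14.6%) and 0 from both of 2 h (against 16.6%). Of the 18 with a peak in neither 0 h list, 2 had a peak in both lists of 30 min (11.1%, against 11.1%), 3 in both of 1 h (16.7%, against 19.2%) and 4 in both of 2 h (22.2%, against 23.9%). The gained shares were close to those of the series, and the induced lists were longer than those of 0 h. The one lost at 1 h lies 18776 bases from the Gins2 start in an intron of Gse1 (chr8:120570441-120570565), with 24 and 18 fragments at 0 h, and 13 in both 30 min replicate 2 and 2 h replicate 2.

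The regions gained at 2 h were at Mcm5, Gins2, Mcm3 and Gins3. The Mcm5 downstream region (chr8:75132585-75132782, 23074 bases from the start, intergenic) was absent from both untreated lists and then had 7 and 8, 8 and 13, and 12 and 13 fragments at the 3 induced times, or percentiles of 25 and 38.5, 41.7 and 63.1, and 60.3 and 63.4. The Gins2 region at +8462 (chr8:120580722-120580895, in untranslated exons of Gins2 and Gse1) was absent at 0 h and had 6 and 10, 8 and 9, and 7 and 18 fragments. The Mcm3 region 4948 bases upstream (chr1:20825220-20825308) appeared in the 2 h lists alone with 6 fragments in each. The Gins3 region 8432 bases upstream (chr8:95624986-95625069) had 5 and 6 fragments at 2 h and 6 in 1 h replicate 1. The last 2 are near the weakest peaks a list can hold.

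**Figure D4:**
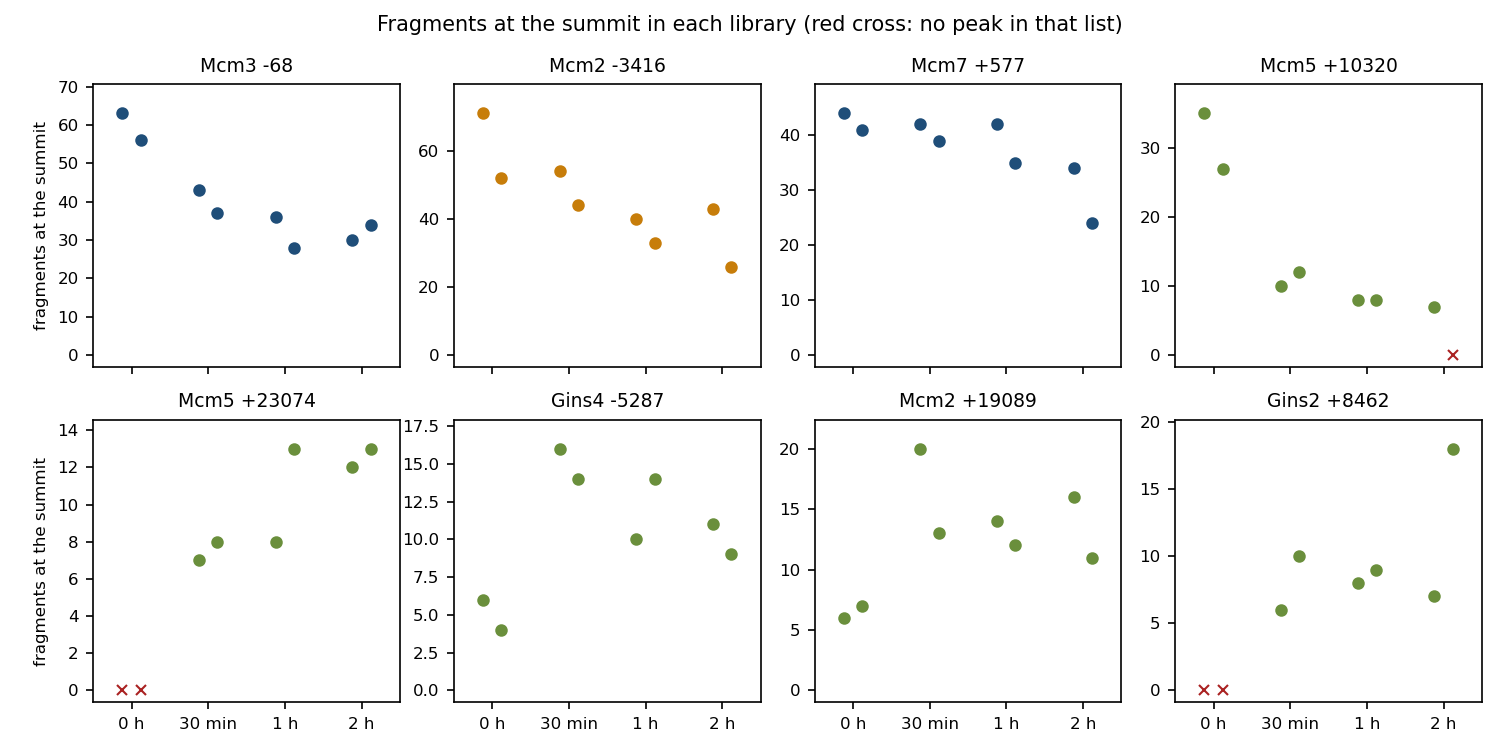
Fragments at the summit (y axis, starting near 0) in each library at each time point (x axis) for 8 regions (panels, named by gene and bases from its start site); a red cross marks a list with no peak there, and colours separate own promoters (blue), promoters of other genes (orange) and other regions (green). The Mcm5 intron region (+10320) drops from 35 and 27 fragments to 10 and 12 within 30 min, and the Mcm5 downstream region (+23074) goes from no peak to 12 and 13.

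A steep fall lay inside Mcm5, in a region outside the 47875 tested because 1 list lacks it. The Mcm5 intron region (chr8:75119801-75120044, 10320 bases from the start) was at percentile 91.7 and 88.5 in the untreated libraries, then at 46.4 and 57.8 (30 min), 41.7 and 38.0 (1 h), and 26.3 in 2 h replicate 1, with no peak in 2 h replicate 2. Its fragments fell from 35 and 27 to 10 and 12, 8 and 8, and 7. All 5 peaks left after induction held 7 to 12 fragments, below both 0 h libraries. In the wider set of 126504 regions with a peak in at least 2 lists, where a missing peak takes the lowest rank of its list, 1 of 42 helicase regions was lower at 2 h (2.38%, against 6.27% of all) and 1 was higher (2.38%, against 2.36%). The lower one was the Mcm5 intron region, with a shift of -1.1 (SE 0.3, adjusted p = 0.0689) at 30 min, -1.38 (SE 0.3, adjusted p = 0.0194) at 1 h and -2.12 (SE 0.3, adjusted p = 0.00444) at 2 h. The 2 h value includes the lowest rank given to 2 h replicate 2. The region was singled out after its values were seen, and its call ended without either 0 h library (adjusted p of 0.0526 and 0.0502) and without either 2 h library (0.0239 and 0.0235), with shifts of -2.57 to -1.72. The higher one was the Mcm5 downstream region, which entered the set through the induced lists alone and took the lowest rank in both 0 h lists. Its direction was fixed by that, so its call restates the gain of a peak and no p is given.

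Of the 49 other genes of origin licensing, helicase activation and fork synthesis on a fixed list, 48 had a tested promoter region, with 70 regions in all. At 30 min 0 passed the threshold, at 1 h 1 was lower (1.43%, against 1.58% of all promoter regions) and at 2 h 3 were lower (4.29%, against 3.18%), with 0 higher at any time. The median shift at 2 h was -0.18 with 67.1% below 0, close to the -0.19 of the helicase promoters. The 3 regions were at Timeless, a fork protection factor, at Ticrr, which helps load Cdc45 onto the ring, and at Pold2, a subunit of DNA polymerase delta. Timeless (chr10:128231151-128231430) went from percentile 74.1 and 73.0 at 0 h to 14.3 and 18.3 at 2 h, a shift of -2.07 (SE 0.32, adjusted p = 0.0028). Ticrr (chr7:79659908-79660295) went from 98.2 and 98.7 to 84.4 and 88.5, with shifts of -1.44 (SE 0.26, adjusted p = 0.00843) at 1 h and -1.32 (SE 0.26, adjusted p = 0.00826) at 2 h. Pold2 (chr11:5878131-5878508) went from 93.2 and 94.9 to 73.9 and 70.1, a shift of -1.34 (SE 0.27, adjusted p = 0.00826) at 2 h. The Timeless call ended without either 0 h or either 2 h library (adjusted p up to 0.0261). The calls at Ticrr and Pold2 ended whichever of the 8 libraries was left out, with adjusted p of 0.0117 to 0.0617 for Ticrr and 0.0108 to 0.0593 for Pold2, and shifts of -1.51 to -1.17 and -1.44 to -1.22.

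The same words were counted in the 200 bases around the summit. These genes are classical E2F targets and the words were chosen with that known, so the share with an E2F word is no independent finding. Summit windows of the other replication genes were not counted apart. An E2F word was present in 7 of the 13 in all lists (53.8%), against 2.67% of the 14290 tested promoter regions, and a CCAAT box in 9 (69.2%, against 29.8%). GGGAA or TTCCC was present in 10 (76.9%, against 44.5%), in part within E2F words. The median GC content was 62.5%, near the 61.0% of all promoter regions. The 7 regions outside promoters held neither an E2F word nor a CCAAT box, and 2 held GGGAA or TTCCC (28.6%, against 41.4% of all regions outside promoters). These are matches of letters in short windows and were given no test.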

How the data were processed

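ATAC-seq was performed on B3 pre-B cells at 0 h, 30 min, 1 h and 2 h of 4-OHT, with 2 libraries each. Per the submitters' processing notes and the study's methods, the authors aligned reads with BWA 0.7.17, shifted them for the Tn5 offset with deepTools 2.3.5, kept nucleosome-free fragments of the shortest size class and called peaks in each library alone with MACS2 2.1.2 in paired-end mode. The notes name GRCm38 (mm10), the methods text names a human build, and all 767727 peaks fit the 21 GRCm38 chromosomes. The deposited lists hold, for each peak, a fold ratio over local background, a −log10 p-value and a −log10 q-value as the authors' caller wrote them, and the offset of the summit. The authors' own comparison was made on read counts, which were not used here. There were 0 unused columns of per-sample values.

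Fragments at a summit were recovered from the fold, (n + 1)/(background + 1), and its Poisson p-value, with a tolerance of 0.0005 on the −log10 p-value. Peaks overlapping by at least 1 base were merged, and the highest fold of a region stood for it. Normal scores of ranks over the 47875 regions in all 8 lists were tested with limma 3.58.1 (R 4.3.3), all 4 time points in 1 fit, two-sided, Benjamini-Hochberg adjusted, threshold 0.01. The fit was run on simulated scores with independent normal noise, which checks the code and not how the fit behaves on ranks from peak lists. Loss and gain of peaks were counted and given no test. Fragments are PCR products without molecular identifiers and carry counting error, so peaks of few fragments are the least certain. Start sites came from the basic set of GENCODE vM21, and promoter means within 1 kb.

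Named regions were every own promoter, every region past the threshold or lost or gained at 2 h, and the 5 largest falls and rises in mean percentile from 0 h to 2 h. The genes, lists, words and tests were chosen with earlier results of these data known. Alternatives were another measure, scale, region set, region definition, variance model, threshold and gene window, the replicate number as a block, and each library left out.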

Additional observations from a re-analysis of the deposited data

How the results depend on the processing

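No helicase region passed an adjusted p of 0.01, and this changed under some alternatives. An adjusted p of 0.05 gave 1 region higher at 30 min, 2 lower and 1 higher at 1 h, and 2 lower and 1 higher at 2 h. Fragments over background gave 1 higher at 30 min and 1 at 1 h, where 142 and 2037 of all 47875 regions were higher. With each library centred the counts were 1 higher at 30 min, 1 lower at 1 h and 2 lower at 2 h. All regions then gave 153 higher, 3157 lower and 4480 lower. A mean trend with a robust prior gave 1 lower at 1 h and 2 lower at 2 h, against 2121 and 3272 of all 47875 regions. The regions in at least 2 lists gave 1 lower at 2 h and 1 higher, the latter absent from both 0 h lists. Leaving out 1 library gave 0 to 1 lower at 1 h (1 without 2 h replicate 2, the Mcm5 region at +10320, which is then in all lists, adjusted p = 0.00634) and 0 in the other comparisons by rank. That 0 says little, since no region of the series passed at any time without 0 h replicate 2, or at 1 h without 0 h replicate 1 or either 1 h library. The peak filter at a −log10 q of 5 gave 1 region lost and 1 gained at 30 min and 1 lost at 2 h, lists of equal length 1 lost at 30 min and 1 at 2 h, and windows around summits 1 lost at 2 h. A gene window of 20 kb gave 4 gained at 30 min, 3 lost at 1 h and 2 lost at 2 h, and a window of 5 kb gave 0 lost at 1 h. With 1 library left out, lost regions numbered 0 to 3 at 30 min, 1 to 3 at 1 h and 1 to 3 at 2 h, and gained regions 2 to 6, 4 to 8 and 5 to 12. Fewer lists are then needed for a call.

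Direction at 2 h turned only for regions with shifts near 0 or wide errors. By rank among all peaks Mcm2 -8168 was at 0.01 and Gins3 -78 at 0.01. By −log10 p Mcm6 -33 was at 0.01. By fragments over background Mcm6 -33 was at 0.02, Mcm7 +15996 at -0.05, Gins2 +16573 at 0.03 and Gins3 -78 at 0.04. With each library centred Mcm5 -857 was at -0.09, Mcm7 +15996 at -0.20, Mcm7 -124 at -0.07 and Mcm7 +3 at -0.05. With 1 library left out the 2 h shift ranged from -0.60 to 0.01 for Mcm2 +12121, -0.04 to 0.42 for Mcm4 -1, -0.26 to 0.41 for Mcm5 -857, -0.03 to 0.85 for Mcm6 -9206, -0.22 to 0.26 for Mcm7 +15996, -0.06 to 0.24 for Mcm7 +10826, -0.14 to 0.38 for Mcm7 -124, -0.05 to 0.12 for Mcm7 +3, -0.13 to 0.61 for Gins1 +244 and -0.64 to 0.45 for Gins3 -78. The cause of these changes was not tested.

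The replicate numbers did not pair the libraries (correlations of deviations 0.0172 to 0.0403). With the number as a block 0 helicase regions passed, and the adjusted p at 2 h of the Mcm5 region at +10320 in the wider set became 0.0119. With 1 library left out the adjusted p at 2 h lay between 0.042 and 0.168 for the Mcm3 promoter and between 0.0272 and 0.132 for the Tpra1 promoter near Mcm2, and that of Gins4 -5287 between 0.0324 and 0.301 (0.0621 under the trended, robust variance). Regions in 2 to 7 lists rested on a median of 10 fragments, against 48.5 for those in all 8.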
